A study of Mus musculus with 18 samples.

Results

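Binding sites of the transcription factors Pitx1 and Tbx5 around the 4 mouse genes of the early B cell factor family, Ebf1, Ebf2, Ebf3 and Ebf4, are described here. The sites come from chromatin immunoprecipitation followed by sequencing (ChIP-seq), in which crosslinked, sheared chromatin is pulled down with an antibody and the positions of enriched DNA are read. Hindlimb buds of wild-type CD1 mice, an outbred strain, served at e11.5 to map the homeodomain factor Pitx1, which acts in the hindlimb. Forelimb buds of the same strain, also wild-type, served at e10.5 for the T-box factor Tbx5 of the forelimb, and both antibodies were homemade. Each map is 1 sample made from whole buds, so a site used strongly in few cells and weakly in many cannot be told apart, and the values below carry no replicate error. How many embryos were pooled is not stated in the labels, and lists of sites hold no expression values against which the labelled limb could be checked. Limb, stage, factor and antibody differ together between the maps, so values of the 2 lists are set side by side and no difference between them was tested.

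A summit is the highest point of a ChIP-seq peak, and its score is the deposited value, taken here as a −log10 q-value from its range and the named peak caller, in which a higher value means a peak less likely to be background. The summits of each gene were selected by position: a summit belongs to a gene when that gene is the nearest protein-coding gene within 100 kb, a summit inside the gene being at distance 0. By this rule 116 of 54941 Pitx1 summits and 28 of 10273 Tbx5 summits fell to 4 of 21887 protein-coding genes. None of these summits was tied between genes. The family was picked out with the counts, scores and shared sites of these lists already known, so these values are given as a description and without a test.

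Ebf proteins bind DNA as dimers through a domain unique to the family and recognise a palindrome of C and G runs. Ebf1 is needed for B lymphocytes to form, Ebf2 acts in brown fat and in bone-forming tissue, Ebf3 acts in neurons and in mesenchyme, and Ebf4 is known best from olfactory neurons. In limb buds, genes of the family are known from mesenchyme, the tissue that gives rise to cartilage, tendon and loose connective tissue.

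The family divided into 3 genes rich in sites and 1 gene with almost none. Ebf1 held 47 Pitx1 and 7 Tbx5 summits, Ebf2 held 34 and 10, and Ebf3 held 34 and 11. Ebf4 held 1 Pitx1 summit and no Tbx5 summit. All 4 genes therefore had a Pitx1 summit, against 55.1% of all protein-coding genes, and 3 of 4 a Tbx5 summit, against 18.8%. The 4 genes collect summits over 90.8 to 516 kb, beside a median of 45.8 kb over all genes. Of genes collecting over 0.5 to 2 times as much sequence, 5.07%, 15.2%, 23.9% and 34.5% had no Pitx1 summit, for Ebf1 to Ebf4. For Tbx5 these shares were 29.0%, 44.5%, 62.5% and 77.4%. Shared sites, at which summits of both factors lay within 200 bp of each other, numbered 2 at Ebf1, 5 at Ebf2, 6 at Ebf3 and none at Ebf4.

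**Figure D1:**
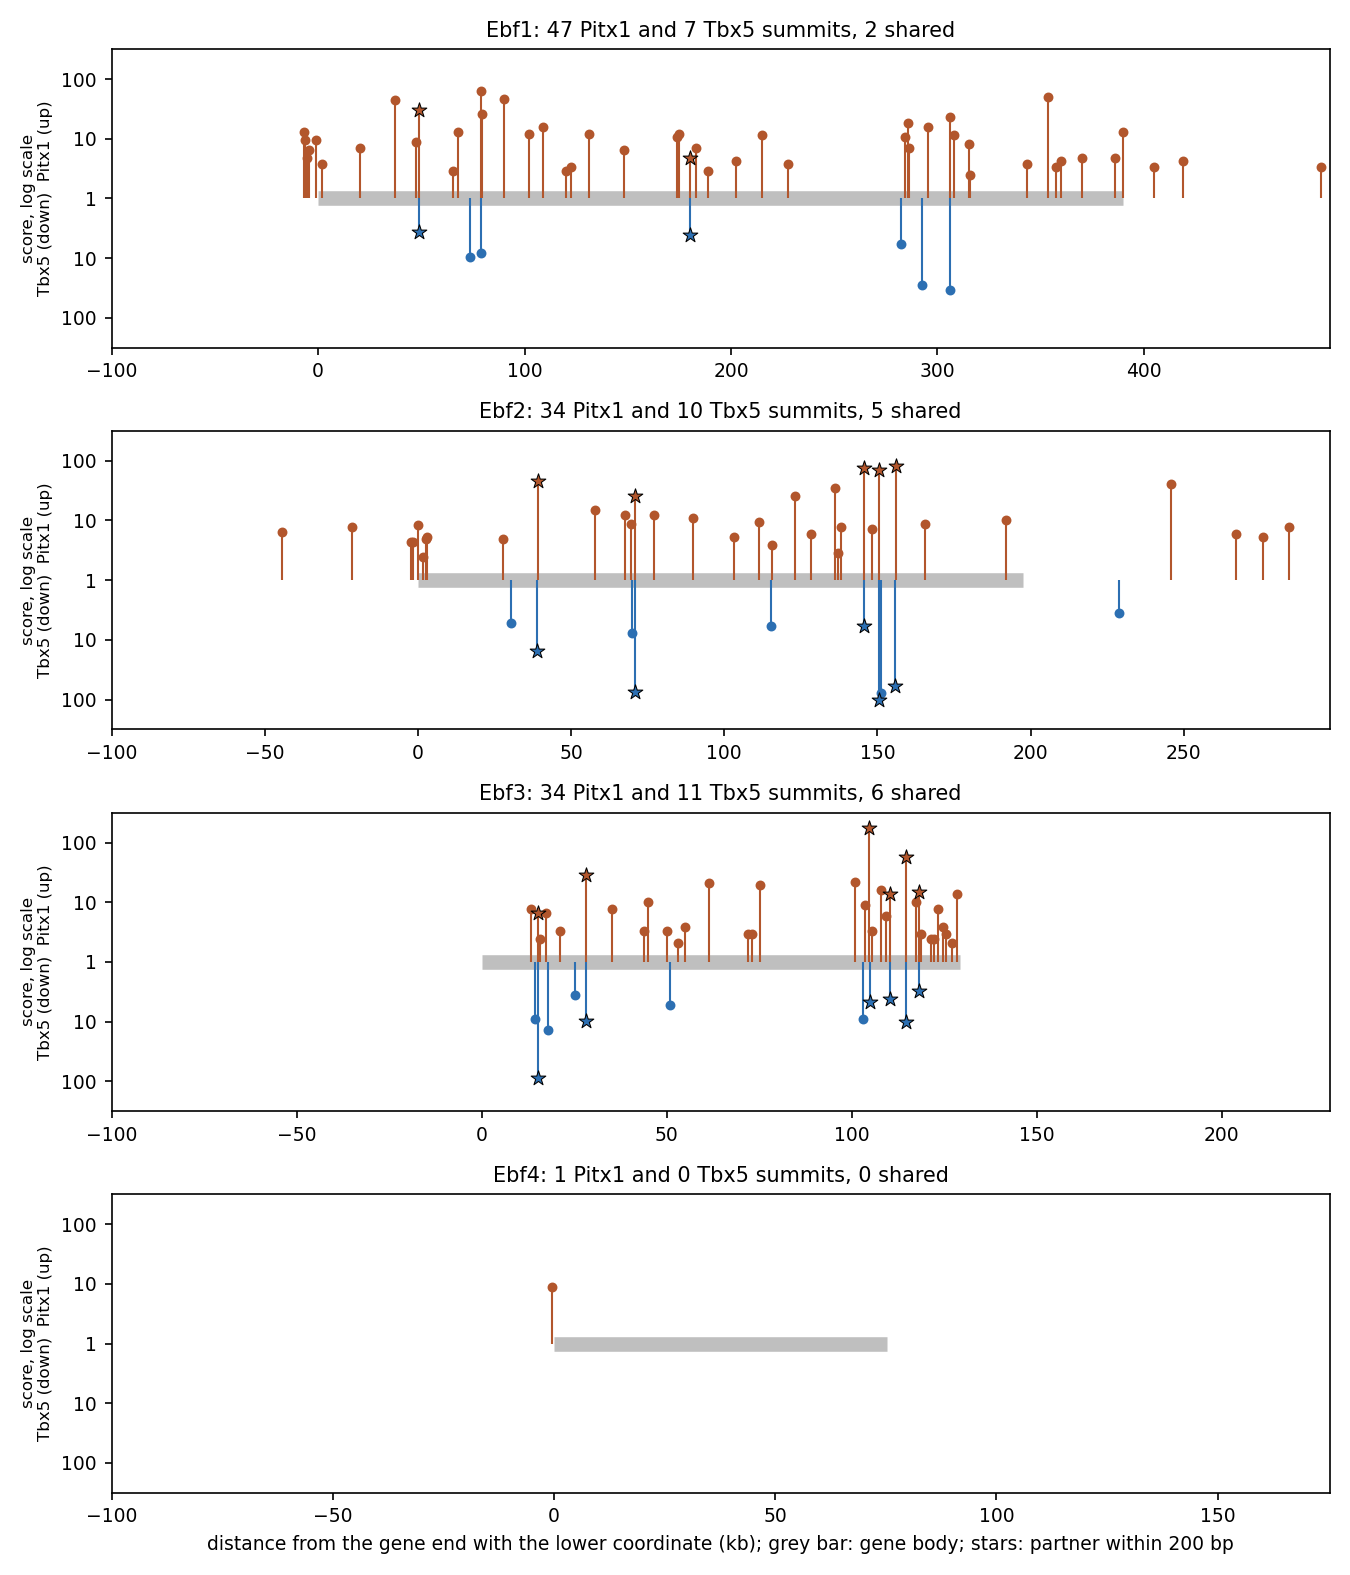
Pitx1 summits (upward, brown) and Tbx5 summits (downward, blue) along each gene, with the score on a log scale against the distance in kb from the gene end with the lower coordinate. Grey bars are gene bodies, stars are summits with a partner within 200 bp, and the panels have different horizontal scales. The 34 Pitx1 and 11 Tbx5 summits of Ebf3 all lie over the gene body, in 2 groups separated by 25.7 kb without a site, while Ebf4 shows 1 Pitx1 summit just outside the gene.

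The sequence just around a start site of transcription is shown for 2 genes, Ebf1 and Ebf3. RefSeq promoter windows, given on GRCm38.p6 (the same chromosome sequence as mm10), run from 250 bases before to 50 bases after a start site. They matched Ebf1 at 2 start sites and Ebf3 and Ebf4 at 1 each, and Ebf2 at none. The Ebf1 window below holds a Pitx1 summit at base 193. The Ebf3 window lies in the part of the gene, 25.8 kb long, that holds 17 Pitx1 summits. None of these is in the window itself, and the nearest, 561 bp from the start site, scored 2.45. Capitals mark the only matches to 3 motifs that were searched on both strands, namely TAATCC for Pitx1, AGGTGT for Tbx5 and CCCNNGGG for Ebf proteins. In the Ebf1 window they are a reverse-strand AGGTGT, and in the Ebf3 window a CCCNNGGG.
Ebf1, chr11:44619978-44620277, plus strand: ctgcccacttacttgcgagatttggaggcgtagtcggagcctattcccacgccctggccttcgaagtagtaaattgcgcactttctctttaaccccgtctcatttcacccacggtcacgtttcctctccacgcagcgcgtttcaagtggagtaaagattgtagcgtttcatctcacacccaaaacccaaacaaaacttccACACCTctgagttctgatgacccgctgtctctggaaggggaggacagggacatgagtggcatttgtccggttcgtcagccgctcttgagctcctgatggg
Ebf3, chr7:137314396-137314695, minus strand: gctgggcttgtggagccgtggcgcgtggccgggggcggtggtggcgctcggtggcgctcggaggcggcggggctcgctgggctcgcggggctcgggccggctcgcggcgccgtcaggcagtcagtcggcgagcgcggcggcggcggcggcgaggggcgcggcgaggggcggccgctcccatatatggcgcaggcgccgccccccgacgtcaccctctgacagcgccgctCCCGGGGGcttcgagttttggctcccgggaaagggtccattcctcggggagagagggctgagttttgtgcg

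Of 4 windows of the family, 1 held a Pitx1 summit and none a Tbx5 summit, while 8.96% of 32851 windows in the table held a Pitx1 summit and 1.18% a Tbx5 summit. The Pitx1 summit in the Ebf1 window (chromosome 11 position 44620170, score 3.83) lay 58 bp upstream of the start site at 44620228. It was missing from a shorter list of Pitx1 summits that was also deposited. The Tbx5-type letters occupy bases 201 to 206 of that window, yet the nearest Tbx5 summit was 46.7 kb away. No window of the family held TAATCC. Across all windows 7.06% held TAATCC, 13.7% AGGTGT and 13.7% CCCNNGGG, so each match is of a common kind, and it is a description of letters and not of a site.

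Ebf1 had the most Pitx1 summits of the family, spread over its whole length. The gene spans 390.0 kb on chromosome 11 (44618100 to 45008096, plus strand). With its flanks, the stretch of sequence nearest to it within 100 kb, called its domain here, is 516 kb. Of its 47 Pitx1 summits, 38 lay inside the gene, 5 below its lower end and 4 above its upper end. In 5 equal parts of the gene from the start they numbered 7, 9, 8, 6 and 8, with a median spacing of 8695.5 bp over the domain. Their scores ran from 2.45 to 64.1 with a median of 8.28. The 5 Pitx1 summits before the gene lay within 6.98 kb of its start, with scores of 12.9, 9.54, 4.84, 6.49 and 9.54, forming a small group upstream of the start site.

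The 5 highest Pitx1 summits of Ebf1 were all inside the gene. They lay at positions 44696847 (score 64.1), 44971674 (49.2), 44708037 (46.2), 44655574 (44.2) and 44666973 (30.8). All 5 belonged to the shorter list of Pitx1 summits that the authors also deposited, and 4 of the 5 lay between 37.5 and 89.9 kb from the start of the gene. The exception lay 354 kb from the start.

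Tbx5 left the start of Ebf1 free of summits. Its first summit stood 48.8 kb into the gene, and the 7 summits, all inside the gene, numbered 2, 1, 1, 3 and 0 in the 5 equal parts. The 2 highest lay at 44924343 (score 34.7) and 44910657 (28.2), and the others at 44691824 (9.62), 44697068 (8.29), 44900234 (5.81), 44798294 (4.13) and 44666893 (3.60). The 2 best Tbx5 sites of Ebf1 thus lay 293 and 306 kb from the start, in a stretch that held none of the 5 best Pitx1 sites.

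At Ebf1 the 2 weakest Tbx5 summits, and no others, met a Pitx1 summit within 200 bp. The summit at 44666893 (score 3.60) had Pitx1 80 bp away, with a score of 30.8. The summit at 44798294 (score 4.13) had Pitx1 47 bp away, with a score of 4.84. The limit of 200 bp mattered here: the strongest Pitx1 summit of the gene was 221 bp from a Tbx5 summit, and the strongest Tbx5 summit 354 bp from a Pitx1 summit that scored 23.0. Within 500 bp, 4 of the 7 Tbx5 summits had a partner, and no whole-list share is given at that limit. Over the whole list, Tbx5 summits lay a median of 540 bp from Pitx1.

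Ebf2 combined a Pitx1 density like that of Ebf1 with stronger Tbx5 sites. The gene spans 198 kb on chromosome 14 (67233292 to 67430952), and its domain 378 kb. Of its 34 Pitx1 summits, 26 were inside the gene, 4 below it and 4 above it, with scores from 2.45 to 83.4 and a median of 7.97. Of its 10 Tbx5 summits, 9 were inside the gene, and their scores ran from 3.60 to 101 with a median of 11.55, the highest Tbx5 median in the family.

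The strongest sites of both factors at Ebf2 lay together, between 146 and 156 kb along the gene. The 3 highest Pitx1 summits, at 67389310 (score 83.4), 67378985 (75.3) and 67383841 (70.8), lay within 10.3 kb of each other. Each had a Tbx5 summit within 200 bp, at 67389115 (score 58.5), 67378866 (5.81) and 67383802 (101). Another Tbx5 summit, at 67384423 (77.9), stood 582 bp from the nearest Pitx1 summit. This stretch thus held 3 of the 4 highest Tbx5 summits of the gene. Of the next Pitx1 summits by score, 67272360 (45.2) was shared with a Tbx5 summit 52 bp away (15.4), and 67478980 (41.2) lay 48.0 kb beyond the gene.

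The remaining shared site of Ebf2 was strong in both lists. Its Tbx5 summit at 67304066 scored 75.6 and its Pitx1 summit, 64 bp away, 25.5. The lower-coordinate end of the gene carried a group of weak Pitx1 summits. From 67231190 to 67236305, 6 of them scored between 2.45 and 8.28, and none had a Tbx5 summit nearer than 27452 bp. The 1 Tbx5 summit outside the gene, at 67462129, scored 3.60 and was 16851 bp from a Pitx1 summit.

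Ebf3 was the most densely bound member. The gene spans 129 kb on chromosome 7 (137193671 to 137322805, minus strand), and its domain 188 kb. All 34 Pitx1 and all 11 Tbx5 summits lay inside the gene, and its flanks of 59.1 kb in total held none. Pitx1 summits were a median of 1808 bp apart, against 8695.5 bp at Ebf1 and 7631 bp at Ebf2. Their scores ran from 2.03 to 173, but the median of 6.49 was the lowest of the 3 rich genes, and 22 of the 34 were below 10.

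The sites of Ebf3 formed 2 groups. In 5 equal parts of the gene from the lower coordinate, Pitx1 summits numbered 5, 5, 6, 1 and 17, and Tbx5 summits 4, 2, 0, 1 and 4. The last of these parts, 25.8 kb that hold the start site at 137314445, contained 4 of the 6 shared sites. No Pitx1 summit lay in the 25.7 kb from 137268958 to 137294652, and no Tbx5 summit in the 52.3 kb from 137244433 to 137296775. Within 10 kb of the start site there were 11 Pitx1 and 2 Tbx5 summits. The 7 Pitx1 summits upstream of that start site, from 137315006 to 137322071, were still inside the annotated gene, scored between 2.03 and 13.6 and had no Tbx5 summit nearer than 3254 bp.

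The highest sites of the factors at Ebf3 were at opposite ends of the gene. The strongest Pitx1 summit, at 137298443, scored 173 and ranked 434 in the whole list, while the Tbx5 summit 15 bp from it scored 4.67. The strongest Tbx5 summit, at 137208893, scored 88.7, while the Pitx1 summit 25 bp from it scored 6.49. These positions lie 104.8 and 15.2 kb from the lower-coordinate end of the gene. The next Pitx1 summits by score lay at 137308305 (56.5), 137221902 (29.0), 137294652 (22.2) and 137255140 (21.3), of which the first and the second were shared.

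The remaining Tbx5 summits of Ebf3 were weaker. The one at 137211462 scored 13.9, the one at 137308316 scored 10.3 and lay 11 bp from a Pitx1 summit, and the one at 137221887 scored 9.62 and lay 15 bp from a Pitx1 summit. Summits at 137207955 and 137296775 scored 8.95 each. The last 2 shared sites joined Tbx5 scores of 4.13 and 3.10 at 137304111 and 137311752 to Pitx1 scores of 13.6 and 15.1, at 106 and 196 bp.

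Ebf4 stood apart from the other members. The gene spans 75.4 kb on chromosome 2 (130295126 to 130370482, plus strand) among close neighbours, and its domain is only 90.8 kb. Its Pitx1 summit, at 130294763, scored 8.90, lay 0.363 kb outside the gene and 1.18 kb upstream of the start site at 130295939, and was missing from the shorter Pitx1 list. No summit of either factor lay inside the gene. The nearest Tbx5 summit to the start site was 86.9 kb away. Of 8350 genes with a domain 0.5 to 2 times as long, 34.5% had no Pitx1 summit and 77.4% no Tbx5 summit, so few or no summits are common among genes of this size.

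Counts depend on how much sequence a gene can collect from, so densities were set beside those of other genes. Per 100 kb of domain, Pitx1 summits numbered 9.10 at Ebf1, 8.99 at Ebf2, 18.1 at Ebf3 and 1.101 at Ebf4. Over the domains of all protein-coding genes the density was 2.37. Tbx5 summits numbered 1.36 per 100 kb at Ebf1, 2.65 at Ebf2, 5.84 at Ebf3 and 0 at Ebf4, against 0.414 over all domains. The order was the same for both factors except between Ebf1 and Ebf2, which were close for Pitx1.

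**Figure D2:**
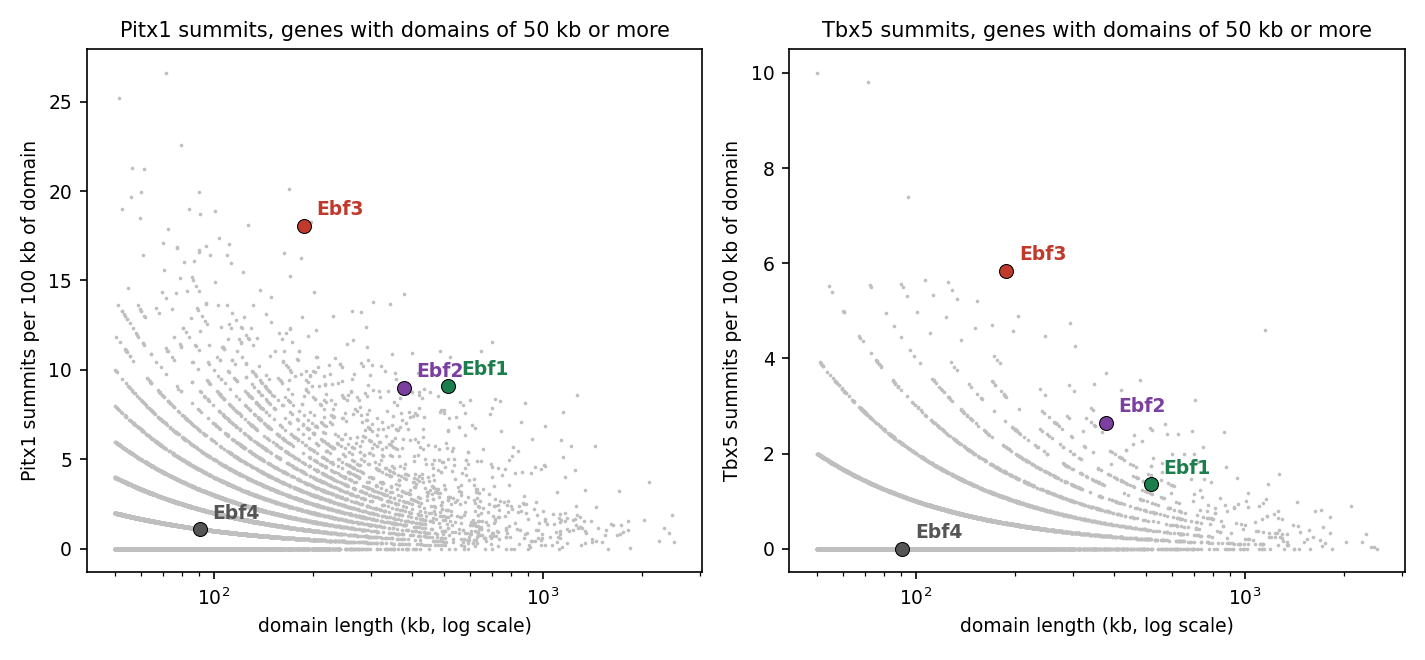
Summits per 100 kb of domain against domain length on a log scale, for Pitx1 (left) and Tbx5 (right), with each grey point a protein-coding gene whose domain is 50 kb or more. Ebf3 sits at 18.1 Pitx1 and 5.84 Tbx5 summits per 100 kb, above nearly all genes of similar length, and Ebf4 sits at 1.101 and 0.

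By density among all 21887 protein-coding genes, Ebf1 ranked 1685 for Pitx1 and 1865 for Tbx5. In the same order Ebf2 ranked 1715 and 830, and Ebf3 513 and 231. A cut at domains of 100 kb or more, chosen after seeing the data, left 6095 genes. Among these, Ebf3 had the highest density of Tbx5 summits and ranked 6 for Pitx1. Ebf1 ranked 165 for Pitx1 and 572 for Tbx5, and Ebf2 ranked 172 and 98. These ranks were lower without the low-scoring summits. Counting summits with a score of 10 or more, Ebf3 ranked 91 for Tbx5, with 3 such summits, and 23 for Pitx1, with 12. In that count Ebf1 ranked 176 for Pitx1 and 1156 for Tbx5, and Ebf2 ranked 237 and 154. With the shorter Pitx1 list the ranks for Pitx1 were 105 for Ebf1, 276 for Ebf2 and 29 for Ebf3.

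Among genes of like domain length the picture was similar. Of 5768 genes with a domain 0.5 to 2 times that of Ebf3, 5 were as dense or denser in Pitx1 summits and 1 in Tbx5 summits, where the median gene had 2 and 0 summits. For Ebf2, 60 of 2338 such genes were as dense in Pitx1 and 26 in Tbx5. For Ebf1, 29 of 1183 were as dense in Pitx1 and 144, or 12.2%, in Tbx5, so its Tbx5 density was the least unusual of the 3.

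Sites of the 3 rich genes lay mostly within the gene bodies. Of the 116 Pitx1 summits of the family 98, or 84.5% (exact Clopper-Pearson 95% interval 76.6 to 90.5), were inside their gene, against 60.6% of all assigned Pitx1 summits. Of the 28 Tbx5 summits 27, or 96.4% (81.7 to 99.9), were inside, against 60.5% of all assigned Tbx5 summits. Intervals here and below treat summits as independent, although summits of the same gene lie close together, and they are no test. By length, gene bodies make up 67.5% of the domains of the family and 54.5% of the domains of all genes. Per 100 kb, Pitx1 summits numbered 9.74 inside and 7.13 outside at Ebf1, 13.2 and 4.43 at Ebf2, and 26.3 and 0 at Ebf3.

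The neighbouring genes held at most 14 Pitx1 and 5 Tbx5 summits each, fewer than Ebf1, Ebf2 or Ebf3. By density the neighbours were also below these members for Pitx1, but for Tbx5 Cdca2 and, slightly, Mgmt were above Ebf1. Beside Ebf3, Mgmt, which encodes a DNA repair enzyme, held 3.82 Pitx1 and 1.36 Tbx5 summits per 100 kb of domain, and 9430038I01Rik on the other side held 1.32 and 0. Beside Ebf1, Rnf145 held 2.06 and 0 and Clint1 2.99 and 0.597. Beside Ebf2, Ppp2r2a, a phosphatase subunit gene, held no summit of either factor, while Cdca2 held 5.60 and 2.101. Idh3b and Cpxm1, on either side of Ebf4, also held none of either.

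The scores of the family resembled those of the whole lists. The median Pitx1 score over the 116 summits was 7.67, against 7.07 for all Pitx1 summits, and 45 scored 10 or more, which is 38.8% against 37% of the list. The median Tbx5 score over the 28 summits was 8.62 against 8.29, and 10 scored 10 or more, which is 35.7% against 42.8%. In the highest-scoring 10% of each list stood 11 of the 116 Pitx1 and 5 of the 28 Tbx5 summits, and 4 of these 5 belonged to Ebf2. The large counts at Ebf1, Ebf2 and Ebf3 thus consisted of many summits of ordinary score and a few strong ones.

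**Figure D3:**
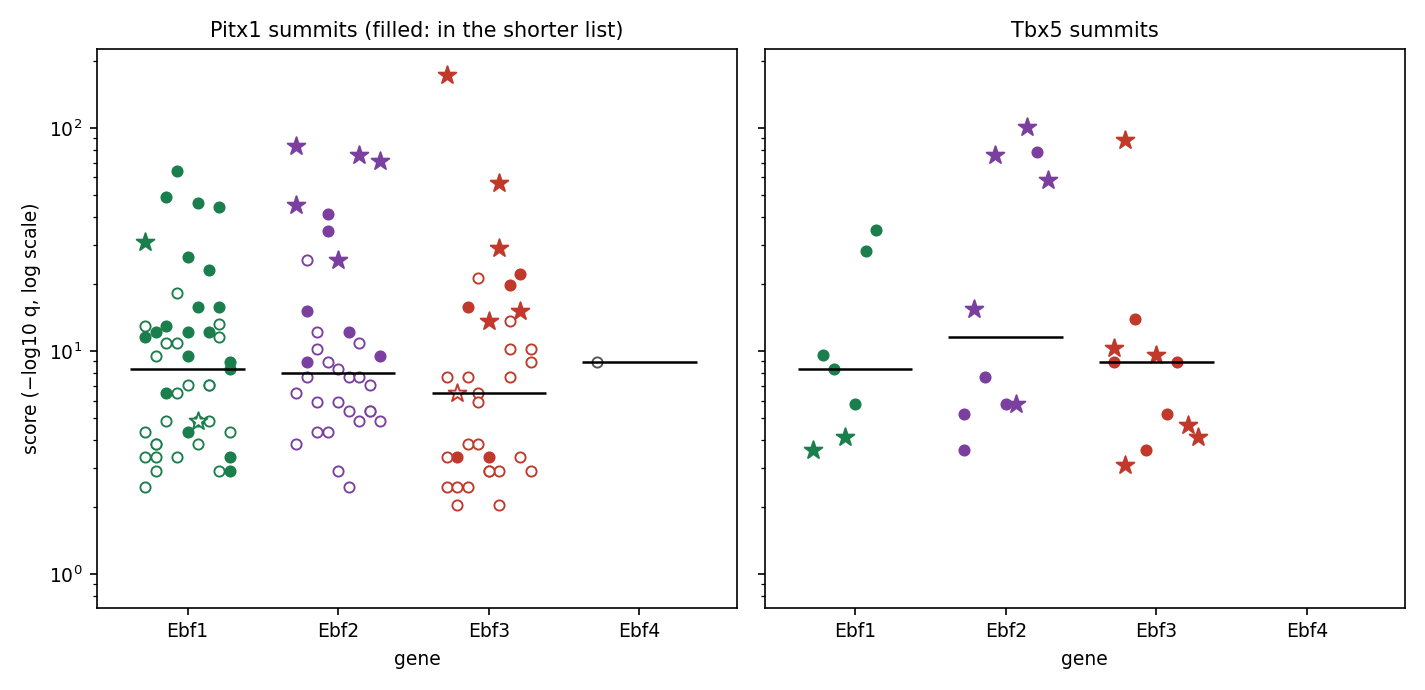
Score of every summit, on a log scale, by gene for Pitx1 (left) and Tbx5 (right), with a black line at the median. Stars are summits with a partner within 200 bp, and filled Pitx1 symbols are summits in the shorter list. The Pitx1 medians of Ebf1, Ebf2 and Ebf3 lie between 6.49 and 8.28, and most Pitx1 stars lie above them.

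Shared sites made up 46.4% of the Tbx5 summits of the family (13 of 28, exact Clopper-Pearson 95% interval 27.5 to 66.1), beside 39.5% of the whole Tbx5 list. They made up 11.2% of its Pitx1 summits (13 of 116, 6.10 to 18.4), beside 7.39% of the whole Pitx1 list. By gene, 2 of 7 Tbx5 summits were shared at Ebf1 (28.6%), 5 of 10 at Ebf2 (50%) and 6 of 11 at Ebf3 (54.5%). Within 1000 bp, 22 of the 28 Tbx5 summits, or 78.6%, had a Pitx1 summit, beside 55.1% of the list, and 10 of the 11 at Ebf3. Tbx5 summits of the family lay a median of 257 bp from Pitx1, and those of the list 540 bp. Pitx1 summits were also denser, at 9.89 per 100 kb over the 4 domains beside 2.37 over all domains, and the part of this density in the shares was not tested.

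The partners at shared sites, which lie within 200 bp by definition, were often but not always unequal in strength. They were a median of 52 bp apart over the 13 sites, from 11 to 196 bp, beside 60 bp over all shared Tbx5 summits. The median was 20 bp at Ebf3 and 64 bp at Ebf2. Placing each score by the share of its own list that scored lower, Pitx1 stood higher at 10 of the 13 sites, beside 63.5% of all shared Tbx5 summits. The gap reached 80.1 percentage points at the strongest Pitx1 summit of Ebf3 (99.2% against 19.1%). In the other direction it was 50.03 points at the strongest Tbx5 summit of Ebf3 (95.7% against 45.6%). At Ebf2 all 5 sites stood above 90% in at least 1 list, and 3 of them stood above 84% in both. Spearman's rho between these percentages was 0.226 over the 13 sites and 0.128 over all 4062, sites of 1 pair of libraries.

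**Figure D4:**
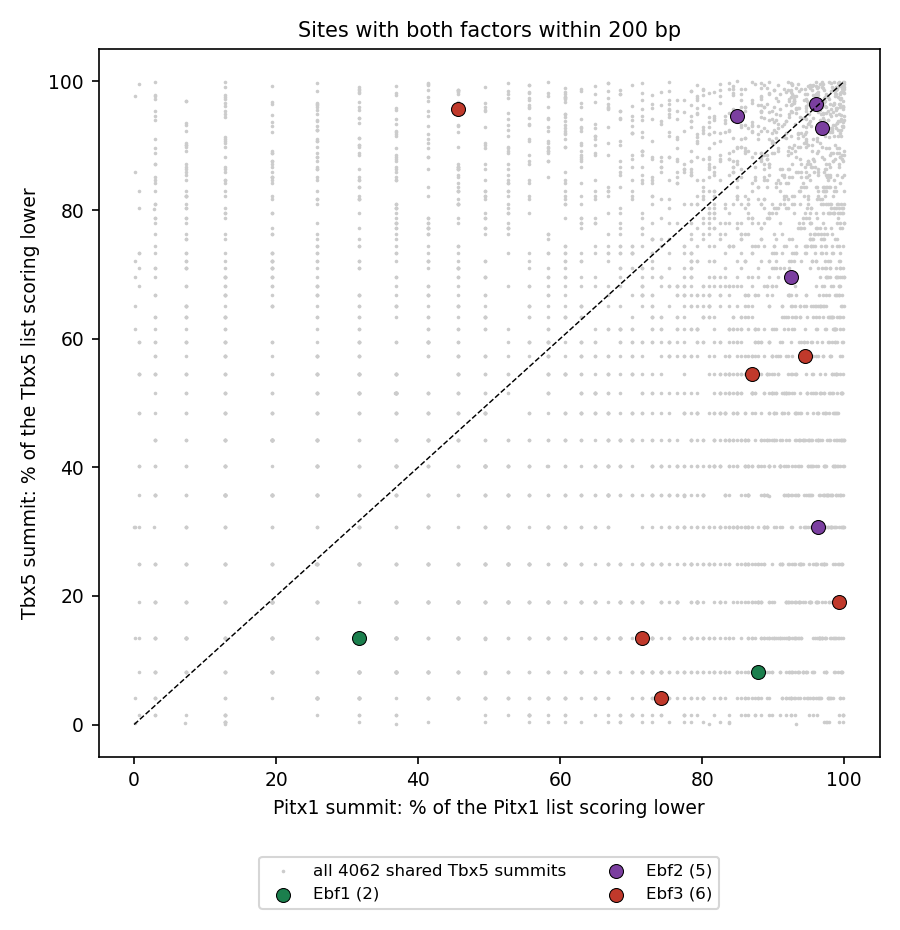
Shared sites, with the share of the Pitx1 list that scored lower than the Pitx1 summit (horizontal) and the share of the Tbx5 list that scored lower than the Tbx5 summit (vertical), in percent. Grey points are all 4062 shared Tbx5 summits and the dashed line marks equal standing. Of the 13 sites at Ebf1, Ebf2 and Ebf3, 10 lie below the line, and 3 of Ebf2 lie in the upper right corner.

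Pitx1 summits at shared sites were stronger than the others of the family. Their median score was 30.8 over 13 summits, against 7.07 over the 103 others, as in the whole list, where the medians were 17.4 and 6.49. For Tbx5 the medians were 9.62 over 13 shared and 8.29 over 15 other summits, beside 11.002 and 7.02 in the whole list. At Ebf1 the shared Tbx5 summits were the 2 lowest of the gene, and at Ebf2 they included 3 of the 4 highest.

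The shorter Pitx1 list, whose selection the labels do not explain, kept 42 of the 116 Pitx1 summits of the family, or 36.2% (27.5 to 45.6), beside 32.4% of the whole list. It kept 21 of 47 at Ebf1 (44.7%, interval 30.2 to 59.9), 11 of 34 at Ebf2 (32.4%, 17.4 to 50.5) and 10 of 34 at Ebf3 (29.4%, 15.1 to 47.5). High scores are kept far more often, from 5.10% of the lowest-scoring 10% of the full list to 93.5% of the highest-scoring 10%. With the full list cut into 10 classes of score, the rates of these classes would keep 14.8 summits of Ebf1, 12.2 of Ebf2 and 9.997 of Ebf3. The list kept 21, 11 and 10. Of the 13 Pitx1 summits at shared sites 11 were kept, against 9.08 at the rates of their score classes.

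Few numbers were missing from the peaks of these genes. The authors' peaks are numbered along the genome, and 77.8% of the Pitx1 and 60.4% of the Tbx5 numbers are present in the lists. Between the first and the last summit of Ebf3 no number was missing in either list. At Ebf1 3 of 50 Pitx1 numbers and none of 7 Tbx5 numbers were missing, and at Ebf2 3 of 37 and 1 of 11. Each span begins and ends at a summit that is present, which lowers the share missing, most of all in short spans. The spans and the whole-list shares are therefore not measured alike.

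The genes most like each member in their counts were found among genes with a domain 0.5 to 2 times as long, by the distance over log2 of the counts of Pitx1, Tbx5 and shared Pitx1 summits with 0.5 added. For Ebf1 they were Nfib (41 Pitx1, 8 Tbx5 and 2 shared Pitx1 summits), Fggy (38, 7 and 2) and Magi1 (42, 6 and 3). For Ebf2 they were Sema3a (37, 11 and 5), Bmpr1b (31, 10 and 6) and Tshz2 (38, 10 and 6). Bmpr1b, a bone morphogenetic protein receptor gene, was also the nearest to Ebf3, followed by Tcf7l2 (38, 9 and 7) and Tanc1 (36, 10 and 8). All 3 have longer domains, between 291 and 369 kb, than the 188 kb of Ebf3. For Ebf4, Npy1r, Ogdh and Fbxo34 had the same counts of 1, 0 and 0.

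Other genes of pathways in which Ebf factors act were read from 5 lists. Of 10 partners and co-regulators of Ebf proteins, 9 had Pitx1 summits and 7 Tbx5 summits, beside 55.1% and 18.8% of all genes, with a median of 17.5 and 2 per gene in domains of a median of 278 kb. Over all protein-coding genes the medians were 1 and 0 in 45.8 kb. Zfp521 and Zfp423, zinc finger genes whose proteins bind Ebf1, held 37 Pitx1 and 6 Tbx5 summits and 31 and 8. Bcl11a held 25 and 5. Ikzf1, a regulator of lymphocytes, held none of either. Zfp521 was within the range of Ebf1 to Ebf3 in Pitx1 count and below it in Tbx5 count, Zfp423 the reverse, and Bcl11a was below it in both.

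Of 10 target genes of Ebf1 in B cells 3 had a Pitx1 summit, beside 55.1% of all genes, and 2 a Tbx5 summit, beside 18.8%. Their domains were short, with a median of 20.2 kb against 45.8 kb over all genes, and 6 of the 10 had no summit of either factor. The 3 with most Pitx1 summits were the recombinase genes Rag1 (3) and Rag2 (2) and the coactivator gene Pou2af1 (1). Of 10 adipocyte genes 6 had a Pitx1 summit and 2 a Tbx5 summit, close to the 55.1% and 18.8% of all genes. Prdm16, a regulator of brown fat, held 47 Pitx1 and 10 Tbx5 summits, Lep, the leptin gene, 3 and 0, and Pparg, the master regulator of fat cells, 2 and 1.

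Olfactory neuron genes and factors of limb connective tissue, like the partners of Ebf proteins, had median densities of both factors above those of all genes. In the olfactory genes this rested on medians of 1 Pitx1 and 1 Tbx5 summit, in domains of a median of 57.0 kb. Of 8 olfactory genes 5 had Pitx1 and 5 had Tbx5 summits, beside 55.1% and 18.8% of all genes, led by Lhx2, which is also a limb gene, with 12 and 3, Gnal with 7 and 1 and Gng8 with 2 and 1. Pitx1 summits were present at all 10 connective tissue factors and Tbx5 summits at 6, with medians of 17.5 and 2.5 in domains of a median of 205 kb. Tcf4 held 40 and 3, Tcf7l2 38 and 9 and Prrx1 30 and 6. Median densities of Pitx1 summits per 100 kb were 9.74 in this list, 5.77 in the partners, 2.06 in the olfactory genes, 0.945 in the adipocyte genes, 0 in the B-cell targets and 1.01 over all genes. In Pitx1 density Ebf1 and Ebf2 were close to the median connective tissue factor, and Ebf3 was above it. For Tbx5 the median of that list was 0.770 per 100 kb, below Ebf1 (1.36), Ebf2 (2.65) and Ebf3 (5.84).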

How the data were processed

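Summit lists of 2 of the 18 samples were used, 1 Pitx1 and 1 Tbx5 sample; the others (histone marks and inputs) were not used here. The submitters' processing notes name Bowtie 1.1.2, Bowtie2 2.2.6, MACS2 2.1.1.20160309, HOMER and build mm10, without roles. The deposited summit value was taken to be a −log10 q-value, the form in which MACS2 reports it: its minimum of 1.31 (Pitx1) and 1.42 (Tbx5) exceeds 1.30, which corresponds to q = 0.05. The labels name an input sample for each map, but labels and files do not say how it was used in peak calling, and state no filter or read depth, so intervals cover the counting of summits only. The shorter Pitx1 list holds 17783 of the longer list's summits, with a further deposited score that was not used. Gene ends came from RefSeq GRCm38.p6, which has no exons or introns in the table used. Summits tied between genes counted for each. Assignment, domain lengths and distances were checked against a brute-force count on made-up coordinates. Members and gene lists were chosen with earlier results of these data known; 5 highest-scoring summits per gene and factor, 3 genes per list and 3 like genes per member are named. Alternatives used other limits of distance and of sharing, scores of at least 10, the shorter list and the strongest 10273 Pitx1 summits. Python 3.11.15, pandas 2.3.3, numpy 2.4.6, SciPy 1.17.1 and matplotlib 3.10.9 were used.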

Additional observations from a re-analysis of the deposited data

How the results depend on the processing

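No paired analysis was possible because each factor has 1 sample. Of 94 values under other settings 62 stayed within 1.5 times the count, or within the interval of the share or median, and 32 did not. Settings that keep fewer summits lowered counts by construction. With scores of at least 10, Pitx1 counts were 20, 13, 12 and 0 for Ebf1 to Ebf4, Tbx5 counts 2, 5 and 3 for Ebf1 to Ebf3, and shared sites 0 at Ebf1 and 1 at Ebf3. With the shorter Pitx1 list, Pitx1 counts were 21, 11, 10 and 0, and Ebf1 had 1 shared site. In that setting 26.2% of Pitx1 summits (11 of 42) were shared, beside 2380 of 17783 in the whole shorter list. With the 10273 strongest Pitx1 summits, counts were 7, 8, 5 and 0, so Ebf2 led in place of Ebf1, with 1 shared site at Ebf1, 3 at Ebf3 and 45% of Pitx1 summits shared. Assignment within 500 kb gave Ebf1 14 Tbx5 summits and 5 shared sites. Sharing within 100 bp left 3 sites at Ebf2. Within 500 bp Ebf1 had 4 and the Tbx5 share was 67.9%. Within 1000 bp the genes had 4, 8 and 10, with 78.6% of Tbx5 and 22.4% of Pitx1 summits shared. Over the whole lists 55.1% of Tbx5 and 10.7% of Pitx1 summits had a partner within 1000 bp. For the 45% and the 67.9% no whole-list share is given, so they cannot be set against other sites. Density ranks among genes with domains of 100 kb or more, an alternative chosen after seeing the data, stand beside the results.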

Other observations

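In the 844 kb without a protein-coding gene between Ebf1 and Clint1, further sites, weak and strong, lay beyond 100 kb from Ebf1. They were still nearer to Ebf1 than to any other gene. There were 11 Pitx1 and 7 Tbx5 summits of this kind, from 116 to 387 kb beyond the gene, and 3 sites were shared. Their scores ran from 3.83 to 613.5 for Pitx1 and from 3.10 to 35.7 for Tbx5. The farthest Pitx1 summit inside the limit lay 95.6 kb from the gene (chromosome 11 position 45103716, score 3.35) and the first outside it 116 kb away (45123626, score 6.49).

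One of these sites was among the strongest Pitx1 summits of the whole list. At 45137029, 129 kb from Ebf1, the score was 613.5, rank 4 of 54941, beside 64.1 for the highest Pitx1 summit assigned to Ebf1. A Tbx5 summit with a score of 15.4 lay 43 bp from it. The site at 45389573, 381 kb from the gene, had a Pitx1 score of 190 and a Tbx5 summit 49 bp away with a score of 3.10. The third shared site, at 45275440, joined a Pitx1 score of 21.3 to a Tbx5 score of 35.7 at 121 bp, the highest Tbx5 score of any summit nearest to Ebf1. All 3 Pitx1 summits were in the shorter list. Beyond 100 kb of Ebf2 lay 1 Pitx1 summit (score 4.84), in a gap of 242 kb to the next gene, against 844 kb at Ebf1. These counts are therefore not comparable between the 2 genes. The gaps beside Ebf3 were 65.5 and 52.8 kb, and those beside Ebf4 10.7 and 20.3 kb. No position beyond 100 kb is thus nearest to Ebf3 or Ebf4, and the absence of such summits there carries no information. Which gene, if any, these distant sites act on was not tested.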
